A study of Mus musculus with 20 samples.

Results

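The nuclear genes for subunits of the respiratory chain and ATP synthase were followed across MYC-driven mouse liver tumors and control livers. Members were picked by a rule on gene symbols, which was set with earlier results of these data known. The rule took rows of both count tables whose symbol starts with Nduf followed by a, b, c, s or v and a number. It also took rows that follow the Cox4 to Cox8, Uqcr, Sdh or Atp5 patterns, and left out rows marked as pseudogenes. This gave 85 of 50559 rows, of which 36 belong to complex I, 4 to complex II, 8 to complex III, 20 to complex IV (Ndufa4 included, which now counts as a complex IV subunit) and 17 to complex V. Of these, 80 passed the filter on low counts. The other 5, Cox4i2, Cox6a2, Cox7b2, Cox8b and Cox8c, are forms restricted to particular tissues, and their largest raw counts in any library were 138, 52, 0, 2 and 0.

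Messenger RNA was sequenced in 20 libraries from wild-type C57Bl6J mice, with 5 libraries per group and each library from a different animal. The 3 tumor groups share MYC, which was delivered by plasmid through hydrodynamic injection into the tail vein, a procedure that transfects mainly hepatocytes, and was integrated by the Sleeping Beauty transposase. In FGF19+MYC tumors the second gene was human FGF19, an intestinal hormone that represses bile acid synthesis, and in Aldafermin+MYC tumors it was an engineered FGF19 analog with a changed N-terminus. In sgTrp53+MYC tumors the second plasmid carried a guide RNA that directs Cas9 to Trp53, the gene for the p53 tumor suppressor. The livers were labelled healthy and untreated, while the study's text describes its control livers as injected with a plasmid for RFP, a red fluorescent protein, and which of these applies was not settled by the sources used here. The MYC gene was under the EF1a promoter, which is active in many cell types, and each tumor library comes from a single nodule, so spread within a group includes differences between tumors.

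Between 18004977 and 44427184 reads fell on genes in the Aldafermin+MYC, FGF19+MYC and liver libraries, and between 54042455 and 66354724 in the sgTrp53+MYC libraries, which were deposited as a table of their own. In those 5 libraries 12.9% of reads (mean) were ambiguous between genes, against 4.48% to 4.81% in the other groups, so differences that involve sgTrp53+MYC and differences between the tables cannot be told apart. Summed over 8 hepatocyte markers, CPM (counts relative to the library's total, scaled between libraries by the trimmed mean method, TMM) ran from 185417 to 233313 in livers and from 4368 to 29256 in tumors, and all 8 markers were detected in every group. The 10 skeletal muscle markers summed to 18.6 to 553 CPM in sgTrp53+MYC tumors and to at most 13.5 CPM elsewhere. Of the 10, 2 averaged 1 CPM or more in sgTrp53+MYC tumors, and Myh1 and Myh4 were under 0.1 CPM in every library. The part of these markers in the results was not tested. In these bulk samples, fewer cells of a type and less RNA per cell cannot be told apart.

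Complex I (NADH dehydrogenase), complex II (succinate dehydrogenase), complex III (the cytochrome bc1 complex) and complex IV (cytochrome c oxidase) pass electrons from nutrients to oxygen, and complexes I, III and IV pump protons across the inner mitochondrial membrane. ATP synthase, complex V, uses the returning protons to make ATP. Most subunits are encoded in the nucleus and imported, while a small set, which excludes complex II, is encoded by mitochondrial DNA. Hepatocytes are rich in mitochondria, since fatty acid oxidation, gluconeogenesis and the urea cycle depend on them.

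The promoters of the members are shown first, because nuclear respiratory factors, ETS factors, YY1 and MYC are known regulators of this gene family. RefSeq windows (GRCm38.p6) from 250 bases before to 50 bases after the annotated start were at hand for 69 members, as 74 windows. The NRF1 core, the 10 bases in capitals in the last 3 sequences below and searched on both strands like all motifs here, occurred in 5 of the 74 windows (6.76%) and in 0.971% of all 32851 windows. The ETS core CCGGAAG occurred in 17 member windows (23.0%) and in 8.86% of all windows, and the YY1 core AAGATGGCG in 7 (9.46%) and 1.40%. The E-box CACGTG, the core bound by MYC with its partner MAX, occurred in 7 member windows (9.46%), close to its share of 7.15% over all windows. The 5 genes with an NRF1 core were Atp5k, Atp5g2, Cox6a1, Ndufa11 and Uqcrc1. Of the 3 complex II genes with a window, Sdha, Sdhb and Sdhd, none held the NRF1 core and none held the E-box, while 2, Sdhb and Sdhd, held the ETS core. A match describes letters in this window and does not show binding.

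The 100 bases up to the annotated start are given for the complex II genes, whose levels are described first below, and for 3 genes with an NRF1 core. They are written 5′ to 3′ on the strand of the gene, with the NRF1 or ETS core in capitals.
Sdha (chr13:74350241-74350340, minus strand): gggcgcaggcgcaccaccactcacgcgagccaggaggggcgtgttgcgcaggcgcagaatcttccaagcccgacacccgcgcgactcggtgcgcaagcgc
Sdhb (chr4:140961171-140961270, plus strand): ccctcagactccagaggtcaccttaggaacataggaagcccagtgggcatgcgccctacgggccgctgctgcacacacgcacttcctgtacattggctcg
Sdhd (chr9:50603850-50603949, minus strand): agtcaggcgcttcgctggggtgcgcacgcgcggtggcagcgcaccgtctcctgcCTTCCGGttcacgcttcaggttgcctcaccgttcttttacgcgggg
Atp5g2 (chr15:102671048-102671147, minus strand): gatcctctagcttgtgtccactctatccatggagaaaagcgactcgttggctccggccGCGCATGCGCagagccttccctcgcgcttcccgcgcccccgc
Atp5k (chr5:108434400-108434499, minus strand): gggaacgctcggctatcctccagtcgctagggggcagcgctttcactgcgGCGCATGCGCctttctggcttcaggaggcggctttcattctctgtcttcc
Ndufa11 (chr17:56717662-56717761, plus strand): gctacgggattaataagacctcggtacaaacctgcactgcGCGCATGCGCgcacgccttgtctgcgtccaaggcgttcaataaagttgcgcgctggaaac
In Sdhd the ETS core lies on the opposite strand, and in Atp5g2, Atp5k and Ndufa11 the NRF1 core reads the same on both strands. The 100 bases shown for Sdha and Sdhb hold neither core, and the ETS core of Sdhb lies elsewhere in its window.

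In these genes 3 tumor libraries stood apart, and each lies in a different group: Aldafermin+MYC replicate 5, FGF19+MYC replicate 1 and sgTrp53+MYC replicate 1. The median member exceeded its group mean by 0.68, 1.00 and 0.85 on the log2 scale. In these libraries 79, 80 and 75 of the 80 tested members were above the mean of their own group, but so were 75 in liver replicate 4, 72 in liver replicate 5 and 70 in sgTrp53+MYC replicate 2. Other genes with short transcripts moved with them. Over 1834 genes that are not members and whose transcripts measure 400 to 1300 nucleotides, the median deviation from the group mean was 0.47, 0.55 and 0.68 in the same libraries, and between -0.33 and 0.20 in the other 17. The members themselves are short, with a median canonical transcript of 988 nucleotides, and 53 of the 78 tested members with a known length are in the shortest quintile of genes (1568 nucleotides or less). Transcript length and member level therefore moved together between replicates, and the part of transcript length in the results was not tested. Results that depend on these libraries are given below with and without them.

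**Figure D1:**
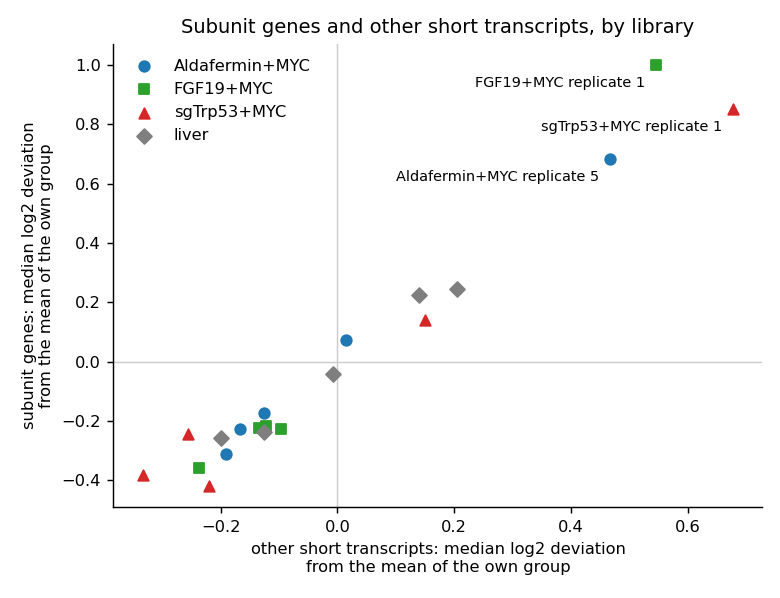
Each point is 1 of the 20 libraries: the x axis gives the median log2 deviation from the group mean of 1834 short-transcript genes that are not members, and the y axis the same over the 80 members. The libraries at the upper right are Aldafermin+MYC replicate 5, FGF19+MYC replicate 1 and sgTrp53+MYC replicate 1, with member deviations of 0.68, 1.00 and 0.85.

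Per kilobase of canonical transcript, the highest mean levels in livers were those of Atp5b, the catalytic beta subunit of ATP synthase (1003 CPM per kb), Cox4i1, the common form of cytochrome c oxidase subunit 4 (803 CPM per kb), Ndufa4 (714 CPM per kb), Cox6a1 (684 CPM per kb) and Atp5a1, the alpha subunit of ATP synthase (587.5 CPM per kb). The median member level in livers rose from 110 CPM per kb in complex I through 167 in complex II, 209 in complex IV and 231 in complex III to 270 in complex V. In tumors the complex II median was lower, at 84.2 CPM per kb in Aldafermin+MYC, 77.3 in FGF19+MYC and 106 in sgTrp53+MYC. The complex V median was 290, 275 and 235 CPM per kb in the same groups.

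Pooled Aldafermin+MYC and FGF19+MYC tumors were compared with livers in edgeR's quasi-likelihood test, with Benjamini-Hochberg adjustment over 14333 genes and a threshold of 0.05. Of the 80 members, 17 were lower and 4 higher in tumors, 1 of the 4 being Cox6b2, which passed the filter only through tumors. Over all genes 73.7% passed the same threshold, 39.2% higher and 34.5% lower, against 21 of the 80 members. The median member differed by -0.17 on the log2 scale, and the median of all genes by 0.10. The 17 lower members were 11 of complex I, 3 of complex II, 1 of complex III and 2 of complex IV, and none of the 17 complex V members, of which Atp5g2 was higher. When library totals alone set the scale, the median of all genes lay at 0.94 and that of members at 0.64, and 48 members were higher and 1 lower (61.1% and 18.3% of all genes). Relative to all genes, the median member lay at -0.26 under TMM and at -0.29 under library totals.

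**Figure D2:**
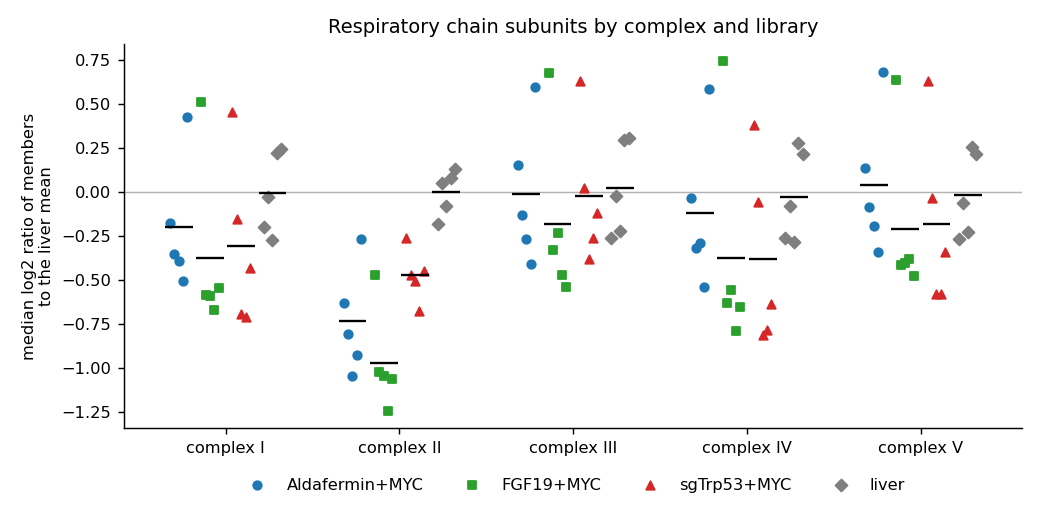
The median log2 level (TMM scale) of the tested members of each complex relative to the liver mean (y axis) is shown for every library, as points by group with the group mean as a black line. In complex II the 15 tumors lie below the 5 livers, with means of -0.73 in Aldafermin+MYC, -0.97 in FGF19+MYC and -0.47 in sgTrp53+MYC, while in the other complexes the 3 libraries high in short transcripts lie above the livers' mean.

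Complex II stood lowest of the complexes in that median. Relative to the liver mean, its median over the 4 subunits was -0.73 ± 0.30 in Aldafermin+MYC, -0.97 ± 0.29 in FGF19+MYC and -0.47 ± 0.15 in sgTrp53+MYC tumors (mean ± SD, n = 5 each), and it ranged from -0.18 to 0.13 in livers, all on the TMM scale. The other complexes had group means between -0.38 and 0.04 in tumors. Those means include the 3 libraries high in short transcripts. Without them, the median log2 difference of sgTrp53+MYC tumors from livers was -0.51 in complex II. It was -0.48, -0.07, -0.47 and -0.44 in complexes I, III, IV and V, so II lay close to I, IV and V there. In the pooled tumors complex II stayed lowest, and the other medians lay between -0.51 and -0.26. With GC and length trends removed, the pooled medians were -0.85 in complex II and -0.73 in complex IV.

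Sdha, the flavoprotein that oxidizes succinate (GRCm39 chr13:74469359-74498436, minus strand), measured 382, 434, 358, 354 and 318 CPM in Aldafermin+MYC tumors and 356, 350, 373, 322 and 335 CPM in FGF19+MYC tumors. It measured 310, 468, 560, 493 and 565 CPM in sgTrp53+MYC tumors and 677, 826, 913, 765 and 759 CPM in livers. All 15 tumors lay below all 5 livers. Sdha was 2.20-fold lower in the pooled tumors than in livers (log2 -1.14, SE 0.13, adjusted p = 1.22e-07 by edgeR) and 1.64-fold lower in sgTrp53+MYC tumors (log2 -0.72, SE 0.15, adjusted p = 0.000322).

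Sdhb, the iron-sulfur subunit (chr4:140688502-140709380, plus strand), measured 184, 156, 133, 142 and 238 CPM in Aldafermin+MYC tumors and 198, 134, 123, 102 and 128 CPM in FGF19+MYC tumors, against 223, 299, 261, 310 and 336 CPM in livers. The highest tumor overlapped the lowest liver. The difference was -0.90 (SE 0.17, adjusted p = 8.44e-05 by edgeR) for the pooled tumors. In sgTrp53+MYC tumors Sdhb measured 242, 186, 157, 131 and 180 CPM, and the difference from livers was -0.67 (SE 0.20, adjusted p = 0.00591).

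Sdhc, a membrane anchor (chr1:170954732-170978223, minus strand), was between 108 and 205 CPM in the pooled tumors and between 155 and 203 CPM in sgTrp53+MYC tumors, all below the livers at 223 to 271 CPM. Its log2 differences were -0.79 (SE 0.13, adjusted p = 1.61e-05 by edgeR) and -0.45 (SE 0.15, adjusted p = 0.0133). The other anchor, Sdhd (chr9:50507642-50515195, minus strand), measured 275 to 676 CPM in pooled tumors, 334 to 639 CPM in sgTrp53+MYC tumors and 321 to 410 CPM in livers, so the groups overlapped. Its pooled difference was 0.19 with a 95% interval of -0.27 to 0.66 (adjusted p = 0.444 by edgeR), and its 3 highest values came from the 3 libraries high in short transcripts. The canonical transcripts of Sdha, Sdhb and Sdhc measure 3073, 4030 and 3209 nucleotides and that of Sdhd 1258. Even so, Sdhb too was highest within each tumor group in the library high in short transcripts. Without those libraries Sdha, Sdhb and Sdhc remained lower, at -1.13, -1.07 and -0.94 in the pooled tumors. With library totals alone as the scale, their pooled differences were -0.29, -0.07 and 0.04, none past the threshold, which is -1.23, -1.01 and -0.90 relative to the median of all genes. They turned positive on that scale in sgTrp53+MYC tumors, at 0.18, 0.20 and 0.43, which is -0.77, -0.76 and -0.52 relative to all genes.

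**Figure D3:**
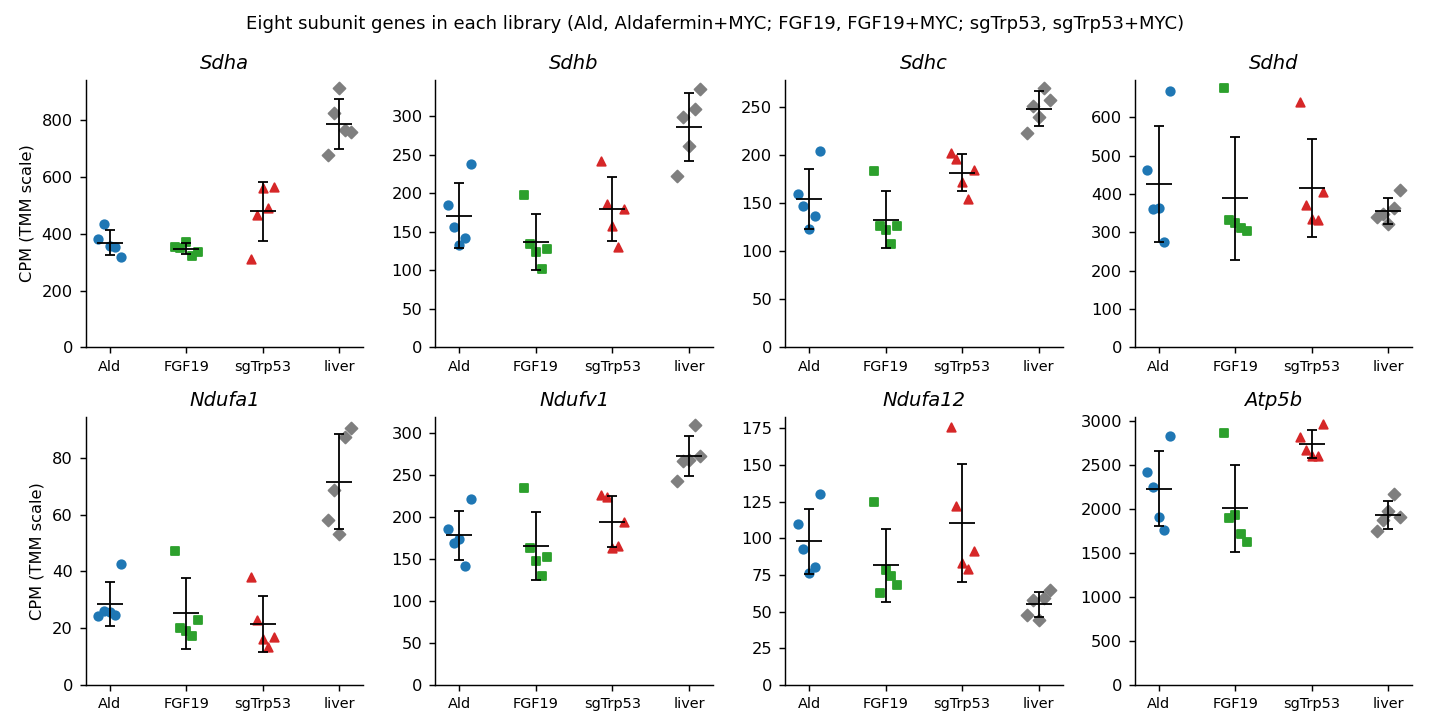
CPM (y axis) of 8 subunit genes in each of the 20 libraries, as points by group with the group mean as a bar and the SD as an error bar. For Sdha the livers lie between 677 and 913 CPM and the 15 tumors between 310 and 565 CPM.

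In complex I, 11 of 36 members were lower and 2 higher in the pooled tumors, with a median of -0.23. The largest decreases were in small accessory subunits. Ndufa1 (chrX:36451241-36454849, minus strand), needed for complex I assembly, measured 24.2, 25.9, 25.7, 24.7 and 42.5 CPM in Aldafermin+MYC tumors, 47.3, 20.1, 18.9, 17.3 and 22.8 CPM in FGF19+MYC tumors and 58.2, 68.6, 53.3, 87.5 and 90.5 CPM in livers. No tumor reached the lowest liver. The fold was 2.67 (log2 -1.41, SE 0.25, adjusted p = 4.11e-05 by edgeR). In sgTrp53+MYC tumors Ndufa1 measured 38.0, 22.9, 16.3, 13.3 and 17.0 CPM, a difference of -1.74 (SE 0.31, adjusted p = 4.90e-05).

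Ndufv3, an accessory subunit of the NADH-binding module, was between 37.6 and 93.1 CPM in the pooled tumors, between 35.3 and 69.1 CPM in sgTrp53+MYC tumors and between 97.0 and 152 CPM in livers. Its differences were -1.07 (adjusted p = 6.34e-05 by edgeR) and -1.40 (adjusted p = 3.27e-05). Ndufv1 of the same module, the subunit that binds FMN and NADH, had a smaller difference and no overlap with livers: 130 to 234 CPM in pooled tumors, 163 to 226 CPM in sgTrp53+MYC tumors and 243 to 310 CPM in livers. Its differences were -0.66 (SE 0.14, adjusted p = 0.000205 by edgeR) and -0.48 (SE 0.16, adjusted p = 0.0114), and both turned positive, at 0.17 and 0.39, when library totals alone set the scale. The sgTrp53+MYC difference of Ndufv1 missed the threshold after each library's trend with GC content and transcript length was removed (-0.24, adjusted p = 0.162).

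Ndufa3 was 2.14-fold lower in the pooled tumors (52.4 against 112 CPM on average, log2 -1.10, adjusted p = 0.000409 by edgeR), with FGF19+MYC replicate 1 at 94.6 CPM above the lowest liver at 90.8 CPM. Genes on the opposite strand, Oscar and Tfpt, overlap its locus, and 62.5% of its exon length is covered by exons of the opposite strand. Whether counting used the strand was not given in the sources used here, so reads of Ndufa3 and of its neighbors cannot be told apart. The remaining lower complex I members were Ndufb9 (133 against 265 CPM on average), Ndufb11 (-0.94), Ndufa13 (-0.82), Ndufa6 (-0.75), Ndufs5 (-0.53), Ndufa9 (-0.36) and Ndufa10 (-0.27). Exons of the opposite strand cover 67.8% of the exon length of Ndufb11, 43.3% of Ndufa13, 28.7% of Ndufb9 and 25.6% of Ndufa6. The limit given for Ndufa3 applies to them as well.

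Both higher complex I members moved against the other called members of the complex, of whose 36 members 10 lay above 0. Ndufa12, an accessory subunit at the junction of the arms of the complex (chr10:94034582-94057450, plus strand), measured 110, 92.6, 76.4, 80.3 and 130 CPM in Aldafermin+MYC tumors and 125, 62.7, 78.1, 74.2 and 68.0 CPM in FGF19+MYC tumors, against 47.8, 58.2, 44.1, 59.1 and 64.9 CPM in livers. All but the lowest FGF19+MYC tumor exceeded every liver. The pooled difference was 0.70 (SE 0.20, adjusted p = 0.00434 by edgeR), and the sgTrp53+MYC tumors, at 79.0 to 176 CPM, exceeded every liver with a difference of 1.01 (SE 0.23, adjusted p = 0.000687). Ndufa12 has a pseudogene row in the tables, which can share its reads. Ndufs7, which carries the last iron-sulfur cluster before ubiquinone, was higher at 159 against 117 CPM (log2 0.44, adjusted p = 0.00959 by edgeR). After trends with GC content and length were removed its difference was 0.02 (adjusted p = 0.850), and 49.4% of its exon length is covered by the opposite strand, where Gamt lies.

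In complex III, Uqcrb, which sits next to the ubiquinone site, was the single called member of 8. It measured 54.2 to 127 CPM in the pooled tumors, 70.3 to 165 CPM in sgTrp53+MYC tumors and 124 to 199 CPM in livers, and the highest Aldafermin+MYC and sgTrp53+MYC tumors overlapped the livers while the FGF19+MYC tumors did not. The differences were -0.99 (SE 0.21, adjusted p = 0.000309 by edgeR) and -0.69 (SE 0.25, adjusted p = 0.0201), and the latter turned to 0.16 when library totals alone set the scale. The median of the complex III members was -0.05 in the pooled tumors and 0.07 in sgTrp53+MYC tumors.

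In complex IV, 2 of 15 tested members were lower in the pooled tumors, Cox6c (-0.80, 127 against 220.5 CPM) and Cox6a1 (-0.64, 252 against 390.5 CPM, but 0.19 under library totals alone). Cox4i1 measured 597, 465, 583, 412 and 1140 CPM in Aldafermin+MYC tumors, 1329, 398, 404, 349 and 416 CPM in FGF19+MYC tumors, 1327, 591, 359, 401 and 415 CPM in sgTrp53+MYC tumors and 511, 592, 476, 797 and 767 CPM in livers. In each tumor group 1 library exceeded every liver, and these were the 3 libraries high in short transcripts. The pooled difference of Cox4i1 was -0.05 with a 95% interval of -0.79 to 0.69 (adjusted p = 0.910 by edgeR). Without the 3 libraries it was -0.49 (adjusted p = 0.00678), and -0.47 in sgTrp53+MYC tumors (adjusted p = 0.0257).

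In complex V the beta and alpha subunits, Atp5b and Atp5a1, were higher in sgTrp53+MYC tumors than in livers. Atp5b measured 2817, 2668, 2603, 2599 and 2968 CPM in sgTrp53+MYC tumors and 1743, 1870, 1969, 2167 and 1906 CPM in livers, without overlap (log2 0.50, SE 0.17, adjusted p = 0.0114 by edgeR). Atp5a1 measured 1718, 1740, 1825, 1789 and 2180 CPM against 1325, 1491, 1510, 1508 and 1424 CPM, again without overlap (log2 0.35, SE 0.14, adjusted p = 0.0313). The call of Atp5a1 was not kept in 4 of the 20 fits that leave out 1 library. In the pooled tumors the differences were 0.13 (95% interval -0.17 to 0.43) for Atp5b and 0.10 (95% interval -0.15 to 0.36) for Atp5a1. Atp5g2, which encodes the proton-carrying c subunit, was higher in the pooled tumors at 206 against 137 CPM (log2 0.59, SE 0.21, adjusted p = 0.0163 by edgeR), with 164 to 322 CPM in tumors and 108 to 176 CPM in livers. Its difference was 0.14 after trends with GC content and length were removed (adjusted p = 0.215).

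Against livers, 18 of 80 members were lower and 4 higher in sgTrp53+MYC tumors, where 69.9% of all genes were called, 33% lower and 36.9% higher. The median member differed by -0.20 and the median gene by 0.07. The 18 were 9 of complex I, 3 of complex II, 1 of complex III, 3 of complex IV and 2 of complex V, Atp5k (-0.88) and Atp5d (-0.47). Ndufa3 (-1.83), Ndufa2 (-1.08), Ndufa13 (-0.98), Ndufa11 (-0.91), Ndufa6 (-0.84) and Ndufb11 (-0.65) were among the lower complex I members. Ndufs1, the largest iron-sulfur subunit of complex I, was higher, at 218 to 306 CPM against 146 to 192 CPM (log2 0.57, SE 0.14, adjusted p = 0.00169 by edgeR). With library totals alone as the scale, 49 members were higher and 4 lower (59.5% and 16.9% of all genes), and the median member lay at -0.29 relative to all genes.

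**Figure D4:**
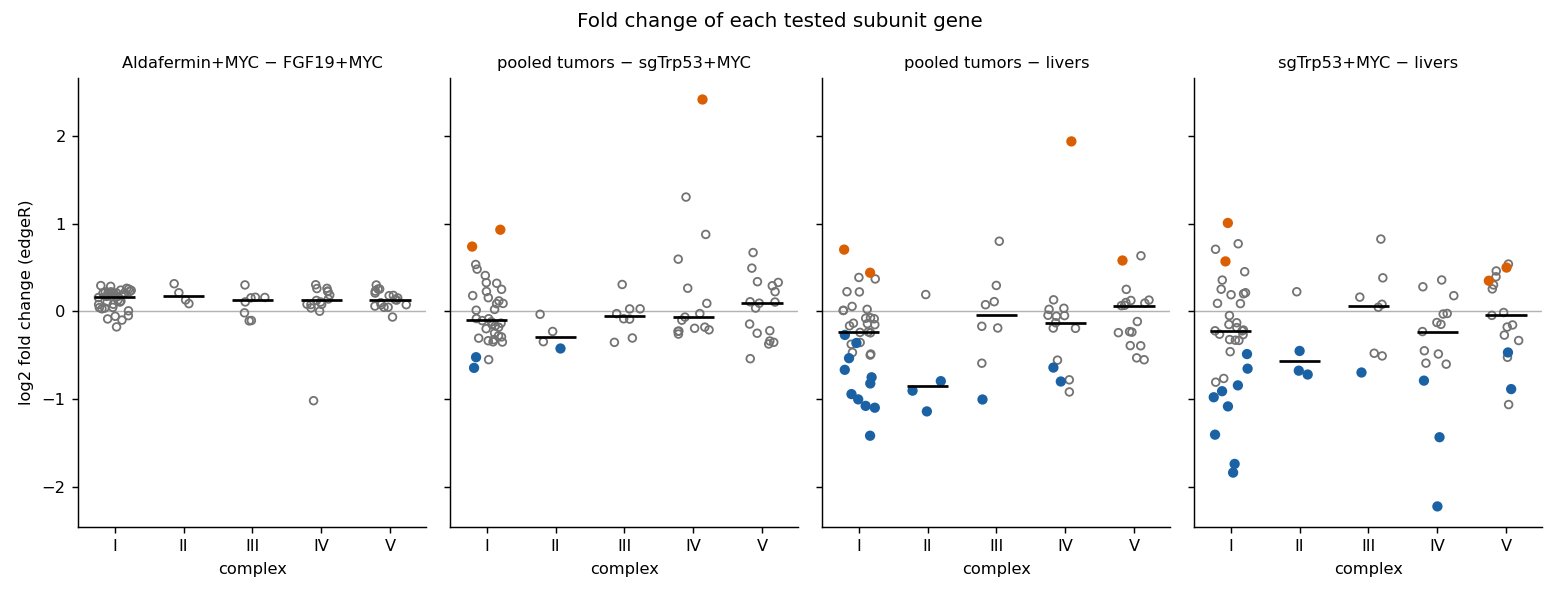
Log2 fold changes (y axis, TMM scale) of the 80 tested members by complex (x axis), with a panel for each of the 4 comparisons, where filled orange points were called higher, filled blue points lower and open points not called, and black lines are medians. Calls against livers lie mostly below 0 in complexes I and II on this scale, and no member was called between Aldafermin+MYC and FGF19+MYC tumors.

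Some subunits separated tumors from livers in every library. Levels of Ndufa1, Ndufb11, Ndufv1, Ndufv3, Sdha and Sdhc, 6 of 80 members, did not overlap and were lower in the pooled tumors, where 25.7% of all genes were lower without overlap. In sgTrp53+MYC tumors 9 members were lower without overlap (27.4% of all genes) and 5 were higher (28.8%), the latter being Atp5a1, Atp5b, Ndufa10, Ndufa12 and Ndufs1, of which Ndufa10 was not called (adjusted p = 0.0639 by edgeR). Across all 15 tumors, Ndufa1, Ndufv1, Ndufv3, Sdha and Sdhc were below every liver (5 members, against 21.9% of all genes), and no member was above every liver (23.4% of all genes). Exons of the opposite strand cover 67.8% of the exon length of Ndufb11, 23.1% of Atp5b and 14.4% of Ndufs1. The other members named here have under 10%.

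Leaving out the 3 libraries high in short transcripts lowers the tumor means of these genes by construction. Without them, 53 members were lower and 4 higher in the pooled tumors (78.4% of all genes called, 37.3% lower and 41.1% higher). In sgTrp53+MYC tumors 47 were lower and 7 higher (74.8% of all genes called, 34.8% lower and 40% higher). With GC and length trends removed within groups only, 25 were lower and 7 higher in the pooled tumors (76.5% of all genes called, 36% lower and 40.5% higher). After the same correction 28 were lower and 7 higher in sgTrp53+MYC tumors (73.5% of all genes called, 35.2% lower and 38.3% higher). That correction reduced the median within-group SD of members from 0.41 to 0.29 in Aldafermin+MYC, from 0.57 to 0.38 in FGF19+MYC, from 0.55 to 0.25 in sgTrp53+MYC and from 0.26 to 0.15 in livers (log2 scale). Sdha, Sdhb and Sdhc were lower in both comparisons under each of these settings.

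The tissue-restricted forms of complex IV were low in every group. Cox6b2, the testis form of subunit 6b, measured 2.04, 0.819, 2.35, 1.46 and 1.71 CPM in Aldafermin+MYC tumors, 12.9, 0.728, 0.987, 1.20 and 1.34 CPM in FGF19+MYC tumors, 0.461, 1.02, 0.242, 0.245 and 0.246 CPM in sgTrp53+MYC tumors and 0.932, 0.697, 0.353, 0.683 and 0.478 CPM in livers. The highest value, in FGF19+MYC replicate 1, is that of a library high in short transcripts. It reached 1 CPM in 7 of the pooled tumors, in 1 sgTrp53+MYC tumor and in no liver, so it passed the filter only through the group where it is high, and its values are given as a description with no test. Of 5 germ cell markers, Tex101, Prm1 and Tnp1 were under 0.1 CPM in every library, and the list summed to at most 1.61 CPM. Cox7a1, the heart and muscle form of subunit 7a, measured 2.08 to 4.20 CPM in livers and 0.292 to 1.53 CPM in sgTrp53+MYC tumors (log2 -2.22, SE 0.63, adjusted p = 0.00403 by edgeR). Some cell type markers moved with it and others did not. The 10 skeletal muscle markers had a median sum of 1.63 CPM in livers and 280 CPM in sgTrp53+MYC tumors. Of these 10, 2 averaged 1 CPM or more in sgTrp53+MYC tumors. There Myh1, Myh4, Myl1, Atp2a1 and Tnnc2 were under 0.1 CPM in every library, so the sum does not describe the list as a whole. The 5 smooth muscle and pericyte markers stood at 56.1 and 59.9 CPM, and the 5 heart muscle markers at 0.57 and 0.45 CPM. The 4 brown fat markers summed to 1.37 to 5.46 CPM in livers and to at most 0.56 CPM in tumors. Of these 4, 1 averaged 1 CPM or more in livers, and Ucp1 was under 0.1 CPM in every liver. The 5 macrophage markers had a median sum of 465 CPM in livers, 231 in Aldafermin+MYC, 316 in FGF19+MYC and 124 in sgTrp53+MYC tumors, and the 5 endothelial markers 219, 82.3, 141 and 75.2 CPM. Their part in the difference of Cox7a1 was not tested.

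Within libraries, each restricted form was set against its common partner as a log2 ratio of CPM with 0.5 CPM added to each, which weighs on forms this low, in 16 exact two-sided permutation tests adjusted together. Cox7a1 relative to Cox7a2 was lower in the pooled tumors than in livers by 0.86 (exact permutation p = 0.000666, adjusted p = 0.00533) and lower in sgTrp53+MYC tumors by 1.34 (exact permutation p = 0.00794, adjusted p = 0.0318). Cox6a2 measured at most 2.90 CPM in any library and was at 0 in FGF19+MYC replicate 4, so that its ratio to Cox6a1 rests on the added 0.5 CPM, and no test of it is given. Cox4i2 relative to Cox4i1 differed by 1.01 (exact permutation adjusted p = 0.0799). These ratios rest on few reads of the restricted form.

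Pooled Aldafermin+MYC and FGF19+MYC tumors were next compared with sgTrp53+MYC tumors. Of the 80 members 3 were higher, Cox6b2 among them, and 3 lower than in sgTrp53+MYC tumors, where 23.7% of all genes were called (11.6% higher, 12.1% lower), and the median member differed by -0.08 against -0.02 over all genes. The split depended on the setting, with 3 higher and 23 lower after the GC and length correction, 2 and 7 by DESeq2, 11 and 3 with trends removed within groups only, and 1 to 10 higher and 2 to 9 lower when 1 library was left out. Over all genes 11.2% were higher and 12.9% lower after that correction, and 13.1% and 15.8% by DESeq2. With trends removed within groups only, the shares of all genes were 14.7% and 14.4%. No such share is given for the fits that leave out 1 library. Ndufs1 was 157.5 CPM on average in the pooled tumors and 245 CPM in sgTrp53+MYC tumors (log2 -0.64, SE 0.12, adjusted p = 0.00105 by edgeR). The groups met at a single point, since Aldafermin+MYC replicate 5 at 219.7 CPM exceeded the lowest sgTrp53+MYC tumor at 218 CPM. Ndufa10 measured 189, 176, 142, 154 and 177 CPM in Aldafermin+MYC, 176, 139, 144, 139 and 129 CPM in FGF19+MYC and 202, 264, 205, 212 and 237 CPM in sgTrp53+MYC tumors, the single member without overlap in this comparison (log2 -0.52, SE 0.10, adjusted p = 0.00120), where 2.42% of all genes were lower without overlap. After GC and length trends were removed Ndufa10 missed the threshold (log2 -0.56, adjusted p = 0.0534). Sdha was lower in the pooled tumors (log2 -0.42, SE 0.13, adjusted p = 0.0233).

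The higher members in the pooled tumors were Ndufa2 (114 against 59.8 CPM, log2 0.93, adjusted p = 0.0401 by edgeR), Ndufa3 (52.4 against 31.4 CPM, log2 0.74, adjusted p = 0.0421) and Cox6b2 (2.55 against 0.443 CPM), which passed the filter through 8 libraries, 7 of them pooled tumors. Ndufa2 and Ndufa3, both accessory subunits of complex I, were just inside the threshold and passed out of it under several settings, among them DESeq2 size factors (0.90 and 0.70), and exons of the opposite strand overlap both. Without the 3 libraries high in short transcripts, 10 members were higher and 14 lower (31.9% of all genes called, 13.3% higher and 18.6% lower). Atp5b (-0.54, adjusted p = 0.00140 by edgeR) and Sdhc (-0.48, adjusted p = 0.00100) were among the lower ones. Pooled-against-sgTrp53 calls share the sgTrp53+MYC libraries with the comparison of those tumors against livers.

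Between Aldafermin+MYC and FGF19+MYC tumors no member differed in edgeR, and none had an unadjusted p under 0.05, where 0% of all genes were called and 1048 had an unadjusted p under 0.05. DESeq2 called 0 members and 96 genes (0.67%). The median member was 0.15 higher with Aldafermin, all genes 0.02, and 70 of 80 members lay above 0, with differences from -1.02 (Cox6b2) to 0.32 (Sdhb). The 95% interval was -0.23 to 0.40 for Sdha, -0.10 to 0.74 for Sdhb, -0.19 to 0.50 for Atp5b and -0.71 to 1.00 for Cox4i1. Differences within these intervals were not excluded. Leaving out FGF19+MYC replicate 1 moved the median to 0.50, and leaving out Aldafermin+MYC replicate 5 moved it to -0.11. Without the 3 libraries high in short transcripts all 80 members lay above 0 with a median of 0.26, against -0.00142 over all genes, 0 were called by edgeR and 7 had an unadjusted p under 0.05. With trends removed within groups only, 7 members had one as well.

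Other mitochondrial genes were grouped in lists, which were chosen with earlier results of these data known. All 13 subunits encoded by mitochondrial DNA were lower in the pooled tumors than in livers, with a median of -1.72, and 7 of 13 were lower in sgTrp53+MYC tumors (median -0.93). COX1, the catalytic subunit of complex IV, averaged 7347 CPM in the pooled tumors and 19340 CPM in livers (log2 -1.41, SE 0.22, adjusted p = 1.20e-05 by edgeR). CYTB, the complex III subunit that binds ubiquinone, averaged 2250 CPM against 8502 CPM (log2 -1.96, SE 0.23, adjusted p = 2.02e-07). Without the 3 libraries high in short transcripts all 13 were lower in the pooled tumors and 5 in sgTrp53+MYC tumors. The list's counts stand against 34.5% and 33% of all genes lower in the same comparisons, and 37.3% and 34.8% without the 3 libraries. Between tumor groups, 5 of 13 were lower in the pooled tumors than in sgTrp53+MYC tumors (12.1% of all genes), and 9 without the 3 libraries (18.6% of all genes). ND6 was just inside the threshold as higher (adjusted p = 0.0481 by edgeR) and missed it without the 3 libraries, under either GC and length correction and under library totals alone. Of the 13, 0 differed between Aldafermin+MYC and FGF19+MYC by edgeR. When library totals alone set the scale, 8 of 13 were lower in the pooled tumors and 1 of 13 in sgTrp53+MYC tumors (18.3% and 16.9% of all genes), with medians of -1.78 and -1.001 relative to all genes. COX2, COX3 and ATP6 have near-identical nuclear copies that can take their reads.

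Carriers and import proteins of the mitochondrial membranes went the other way. Their list too was chosen with earlier results of these data known, so its counts describe these genes only. All 14 exceeded livers in the pooled tumors (median 1.25) and 13 of 14 in sgTrp53+MYC tumors (median 1.21), where 39.2% and 36.9% of all genes were higher, and under library totals alone 14 of 14 did in both, where 61.1% and 59.5% of all genes were higher. Slc25a4, the adenine nucleotide carrier of heart and muscle, averaged 533 CPM in the pooled tumors and 9.47 CPM in livers (log2 5.80, SE 0.35, adjusted p = 1.85e-11 by edgeR), and 470.3 CPM in sgTrp53+MYC tumors. Slc25a5, the adenine nucleotide carrier common in other tissues, was at 827 against 605 CPM (log2 0.45, adjusted p = 0.00416). Tomm40, the channel of the import pore, rose from 52.0 to 262 CPM (log2 2.33, adjusted p = 3.07e-12).

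Assembly factors of the complexes were mixed: of 51 tested of 53, 22 had risen and 6 had fallen from livers to the pooled tumors, and 23 higher and 7 lower in sgTrp53+MYC tumors. The shares of all genes were 39.2% higher and 34.5% lower in the former comparison, and 36.9% and 33% in the latter. In the fits that leave out the 3 libraries 23 assembly factors were higher in each comparison (41.1% and 40% of all genes), and 13 and 12 lower (37.3% and 34.8%). Cox15 and Cox10, which make heme A for complex IV, were higher in the pooled tumors by 1.43 and 1.14, and Atpaf1, which assembles the catalytic head of ATP synthase, by 1.45. Tmem126b (-1.55) and Ndufaf3 (-1.26), which assemble complex I, were lower. Among 15 regulators of mitochondrial biogenesis and oxidation, the pooled tumors had 7 higher and 4 lower, near the shares of all genes. Pprc1, a coactivator related to PGC-1alpha (2.75, 166 against 24.6 CPM), Nrf1 (1.01) and Tfam (0.94), which maintains mitochondrial DNA, were higher, and Ppara, the receptor that drives fatty acid oxidation (-3.26, 57.7 against 554 CPM), and Ppargc1a (-0.79) were lower. Of the same regulators 8 were higher and 1 lower in sgTrp53+MYC tumors. Under library totals alone, 41 assembly factors and 12 regulators were higher and 2 and 1 lower in the pooled tumors (61.1% of all genes higher, 18.3% lower), and Ppargc1a turned to 0.06.

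Of 13 other enzymes of the TCA cycle, 3 rose and 3 fell from livers to the pooled tumors, where 39.2% and 34.5% of all genes did. In sgTrp53+MYC tumors 5 were higher and 3 lower, against 36.9% and 33% of all genes. In the pooled tumors 5 fell when the 3 libraries were left out (37.3% of all genes). Idh3a, the catalytic subunit of NAD-dependent isocitrate dehydrogenase, was higher by 1.69 (171 against 53.0 CPM, adjusted p = 1.03e-09 by edgeR), while Suclg2 (-1.27) and Sucla2 (-0.86), subunits of succinyl-CoA synthetase, the step that makes succinate for complex II, were lower. Under library totals alone, 10 of these enzymes were higher and 1 lower (61.1% and 18.3% of all genes), and Sucla2 stood at -0.018 (adjusted p = 0.884 by edgeR). Of the 4 tested respiratory genes that the symbol rule leaves out, Cycs, the electron carrier cytochrome c (0.66), and Ndufab1 (0.62) were higher in the pooled tumors, and Cyc1 differed by 0.21 (adjusted p = 0.326 by edgeR). These lists share the tumor and liver libraries with the subunits.

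**Figure D5:**
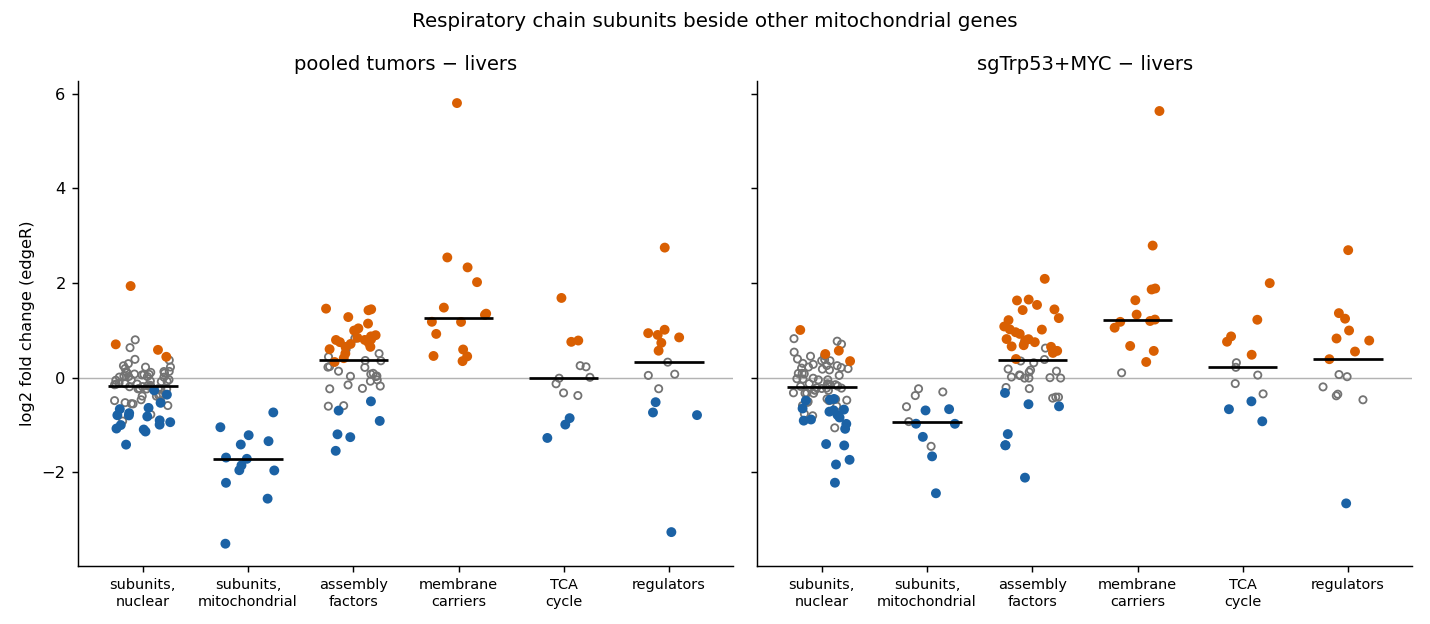
Log2 fold changes (y axis, TMM scale) of the subunits and of the other mitochondrial gene lists in the comparisons of the pooled tumors and of sgTrp53+MYC tumors with livers, by list (x axis), with a point per gene (orange called higher, blue lower, open not called) and black lines at the medians. The medians run from -1.72 for the 13 subunits encoded by mitochondrial DNA to 1.25 for the 14 membrane carriers in the pooled tumors.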

How the data were processed

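RNA-seq was performed on 20 libraries from mouse liver tumors and livers, 5 per group, each from a separate animal. According to the methods, stranded TruSeq mRNA libraries were sequenced as paired reads of 150 bases, aligned with HISAT2 to mm39 and counted per RefSeq gene with htseq-count. bcl2fastq 2.20.0.422 is listed in the submitters' processing notes. Whether counting used the strand was not given in the sources used here. The deposited values are raw counts per gene from the authors, in 2 tables, of which sgTrp53+MYC forms its own. The closing lines of the counter, which name no gene (not aligned, 5.34% to 34.0% of reads, and ambiguous, 3.03% to 14.6%), were kept out of all totals.

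A gene needed 1 CPM or more in 5 or more libraries to be tested (14333 genes), after which counts were scaled by TMM and compared with edgeR 4.0.16 quasi-likelihood (R 4.3.3) in a single model of the 4 groups. SE and 95% intervals come from the same model. Medians and complex values are on a log2 CPM scale with a prior count of 2. Isoform ratios used a pseudocount of 0.5 and exact permutation tests. The procedure was tested on simulated data. DESeq2 1.42.0, other scalings, filters, GC and length corrections (splines), a replicate block and leaving out each library were tried as alternatives.

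Members and lists were chosen with earlier results of these data known. Named subunits were the extremes of each complex and comparison, isoform pairs, catalytic or cofactor subunits, matches that are no plain subunit, members called against the majority, and the 3 genes of smallest adjusted p in each other list. Ndufv3, Ndufb9, Ndufb11, Ndufa13, Ndufa6, Ndufs5, Ndufa9, Ndufa10, Slc25a5, Cyc1, Ndufaf3, Ppargc1a and other called members outside that rule were named after their values were seen. Same-numbered replicates of different groups did not deviate together (mean r -0.019, range -0.33 to 0.33), so the numbers do not pair libraries. Coordinates of genes and transcript lengths are from GENCODE on GRCm39, which matched 83 members, 14 through an older symbol, and promoter sequences are from RefSeq on GRCm38.p6, a different build. All libraries differed by more than sampling noise. The values of 1 member taken alone are not reported here, and it is counted in the totals.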

Additional observations from a re-analysis of the deposited data

Results flagged for a closer look

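Among 104 groups of 5 libraries (the medians of each complex and the described subunits), 28 held a library whose gap to the nearest other was over 71% of the group's range (Dixon's 95% criterion). Chance flags about 1 in 20 groups, and the genes share libraries, so the flags are not independent. Every flagged value was the highest of its group, and most came from the 3 libraries high in short transcripts.

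In FGF19+MYC replicate 1, the median log2 level relative to livers was 0.51 for complex I, -0.47 for complex II, 0.67 for complex III, 0.74 for complex IV, 0.63 for complex V and 0.61 for all members. In the same library Sdhc reached 184 CPM, Sdhd 676 CPM, Ndufa1 47.3 CPM, Ndufa3 94.6 CPM, Ndufa2 252 CPM, Ndufa12 125 CPM, Atp5b 2855 CPM, Atp5g2 322 CPM, Uqcrb 113 CPM, Cox4i1 1329 CPM, Cox6b2 12.9 CPM and Cox7a1 4.74 CPM. In Aldafermin+MYC replicate 5, Ndufa1 reached 42.5 CPM, Ndufa3 77.1 CPM, Ndufa2 173 CPM, Cox4i1 1140 CPM and Cox7a1 3.34 CPM. In sgTrp53+MYC replicate 1, Sdhd reached 639 CPM, Uqcrb 165 CPM and Cox4i1 1327 CPM.

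Outside these libraries, Atp5a1 was highest in sgTrp53+MYC replicate 5 (2180 CPM) and Cox6b2 in sgTrp53+MYC replicate 2 (1.02 CPM). Sdha and Sdhb had no such library in any group.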

How the results depend on the processing

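The within-group GC and length correction and the fit without the 3 libraries high in short transcripts were chosen after seeing the data. Over the described subunits and all comparisons, 1716 alternative values kept their direction and side of the threshold, 129 came to pass it, 38 lost it and 28 reversed. The causes were not tested.

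The replicate block, for which the pairing by number has no basis in the labels or the data, gave 3 members higher and 3 lower for pooled against sgTrp53+MYC tumors, 4 and 24 for pooled tumors against livers, and 3 and 22 for sgTrp53+MYC tumors against livers. Only 1 library correlated best with its own number. With the block and a GC and length correction together, 22 members were lower in pooled against sgTrp53+MYC tumors, 2 were higher and 45 lower in pooled tumors against livers, and 32 were lower in sgTrp53+MYC tumors against livers. Cox8a (-0.55), Atp5g1 (-0.51) and Cox7a2 (-0.41) reversed there. With the correction alone 23, 41 and 29 members were lower (12.9%, 36.1% and 34.8% of all genes), and Cox8a (-0.55) and Atp5g1 (-0.51) reversed.

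For pooled against sgTrp53+MYC tumors, DESeq2 gave 7 members lower (15.8% of all genes) and library totals alone 9 (13.5%). The within-group correction gave 11 higher (14.7% of all genes), and leaving out the 3 libraries 10 higher (13.3%) and 14 lower (18.6%). DESeq2 size factors, no filter on low counts and the compared groups only each gave 1 higher, and a filter of 10 CPM gave 0 by edgeR.

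Library totals alone gave 48 higher and 1 lower, median 0.64, for pooled tumors against livers, with reversals of Cox4i1 (0.76), Cox6a1 (0.19), Cox6b1 (0.63), Cox8a (0.78), Ndufs1 (0.76), Ndufs8 (0.75), Ndufv1 (0.17), Sdhc (0.038) and Uqcrfs1 (0.64). The reversals there number 10, and the tenth is not reported here. For sgTrp53+MYC tumors against livers they gave 49 higher and 4 lower, median 0.67, with reversals of Atp5g1 (0.59), Atp5g3 (0.82), Cox4i1 (0.81), Cox6a1 (0.42), Cox6b1 (0.070), Cox8a (0.73), Ndufs8 (0.60), Ndufv1 (0.39), Sdha (0.18), Sdhb (0.20), Sdhc (0.43) and Uqcrb (0.16). No filter on low counts gave 7 higher and 11 lower in pooled tumors and 10 and 6 in sgTrp53+MYC tumors, and the compared groups only gave 8 higher in the latter. The within-group correction gave 7 higher in pooled tumors (40.5% of all genes), and 7 higher and 28 lower in sgTrp53+MYC tumors (38.3% and 35.2%). Without the 3 libraries 53 were lower in pooled tumors (37.3% of all genes), with Cox7a2 reversed (-0.39). In sgTrp53+MYC tumors 7 were then higher and 47 lower (40% and 34.8% of all genes).

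Leaving out 1 library at a time gave medians of -0.11 to 0.50 between Aldafermin+MYC and FGF19+MYC, with 0 members called by edgeR each time. For pooled against sgTrp53+MYC tumors it gave 1 to 10 higher, 2 to 9 lower and medians of -0.25 to 0.30. The count of higher members was 10 without sgTrp53+MYC replicate 1 and 1 without Aldafermin+MYC replicate 5, FGF19+MYC replicate 1 or sgTrp53+MYC replicate 3, 4 or 5, and that of lower members was 9 without Aldafermin+MYC replicate 5 and 8 without FGF19+MYC replicate 1. For pooled tumors against livers it gave 3 to 5 higher, 14 to 28 lower (28 without FGF19+MYC replicate 1) and medians of -0.35 to -0.10. For sgTrp53+MYC tumors against livers it gave 3 to 7 higher (7 without Aldafermin+MYC replicate 5), 14 to 31 lower (31 without sgTrp53+MYC replicate 1) and medians of -0.49 to -0.07.

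Among the isoform ratios, Cox4i2/Cox4i1 in pooled tumors against livers passed with a pseudocount of 0.1 (1.68) and with raw counts plus 1 (1.85). Cox7a1/Cox7a2 missed with a pseudocount of 2 in pooled against sgTrp53+MYC tumors (0.11) and in sgTrp53+MYC tumors against livers (-0.59). Ratios of Cox6b2 and Cox6a2 are given as a description with no test. Cox6b2/Cox6b1 in pooled against sgTrp53+MYC tumors stood at 1.29 with a pseudocount of 0.1 and 1.54 with raw counts plus 1. Cox6a2/Cox6a1 in pooled tumors against livers stood at 1.87 with raw counts plus 1. Leaving out 1 library at a time gave 0.40 to 0.56 for Cox7a1/Cox7a2 in pooled against sgTrp53+MYC tumors, where 13 fits missed the threshold. The ranges were 0.86 to 1.20 and 0.30 to 1.13 for Cox4i2/Cox4i1 in pooled and sgTrp53+MYC tumors against livers, and 0.56 to 0.85 for Cox6a2/Cox6a1 and 0.40 to 0.72 for Cox6b2/Cox6b1 in sgTrp53+MYC tumors against livers.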

Other observations

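The share of all gene reads taken by the 85 members was 2.07% ± 0.43 in Aldafermin+MYC, 1.84% ± 0.57 in FGF19+MYC, 2.19% ± 0.44 in sgTrp53+MYC tumors and 1.22% ± 0.15 in livers (mean ± SD, n = 5 each), whereas the TMM-scaled median of members was lower in tumors. The mitochondrially encoded messenger RNAs took 1.63%, 2.29%, 3.14% and 3.04% of reads in the same order.

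Members were divided by how much of their exon length lies opposite exons of another gene. Of the 56 tested members with under 10%, 3 rose and 12 fell in the pooled tumors relative to livers (median -0.17), and of the 22 with 10% or more, 1 rose and 5 fell (median -0.22). Over all genes tested, 4094 of 10542 were higher and 3650 lower with under 10%, and 1369 and 1166 of 3401 with 10% or more. In sgTrp53+MYC tumors the counts were 2 higher and 10 lower among the 56 (median -0.22) and 2 higher and 8 lower among the 22 (median -0.25), against 3851 higher and 3475 lower of the 10542 genes and 1299 and 1136 of the 3401.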
